A study of Homo sapiens with 32 samples.

Results

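SNGM is a human endometrial cancer cell line that the labels give as CTNNB1-mutated, so it carries a mutant gene for beta-catenin, the effector of canonical Wnt signalling. RNA was sequenced from SNGM cells kept for 24 h in DMSO vehicle (2 libraries) or in 350.7 nM SM08502 (2 libraries), and the comparison of these 4 libraries is the subject here, out of 32 in the series. The rest of the series holds SNGM cells given 11.7 nM paclitaxel alone or with 350.7 nM SM08502 (2 libraries each) and the same 4 treatments of Ishikawa, Ishikawa-S33Y and HEC265 endometrial cancer cells, where SM08502 was used at 80, 85 and 149 nM. Each dose was described as the line's half-inhibitory concentration for viability, so dose and line cannot be told apart. The labels say that cells were plated in duplicate and do not say more about how far the duplicates were separate. The p-values of the fit over all 32 libraries measure the spread between duplicates, pooled over the 4 lines. This spread may be partly technical.

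SM08502 inhibits the CDC-like kinases (CLK). These kinases phosphorylate the serine- and arginine-rich SR proteins, which bind exons and guide the spliceosome to splice sites, and their own transcripts are known to be spliced according to CLK activity. Compounds of this class have been studied in cancers with active Wnt signalling. Changes of total gene level are reported here; splicing itself was not analysed here.

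The 4 libraries held 31.3 and 34.1 M reads (vehicle) and 27.5 M and 28.1 M reads (SM08502). The share of reads from mitochondrial transcripts was 5.37% and 9.99% in vehicle and 8.90% and 6.66% in SM08502, so the groups overlapped. A score for the recovery of long transcripts (50 long genes against 22 ribosomal protein genes, as the difference of their mean log2 levels) was -0.999 and -0.53 in vehicle against -0.90 and -0.93 in SM08502. Its part in the results was not tested beyond a fit with the score as a covariate, which called more genes. All 8 defining markers of endometrial epithelium passed the filter on low values, none was called, and they summed to 1146 and 1201 CPM (read counts scaled to the depth of the library) in vehicle and 1225 and 1137 CPM in SM08502. The 7 stromal fibroblast markers summed to 5.77 to 10.3 CPM over the 4 libraries, with COL3A1 at 0 in all of them, and the 5 endothelial markers summed to 3.35 to 5.42 CPM. Of 8 leukocyte markers, 6 were below 1 CPM in every library. CD68, a lysosomal protein that is also used as a macrophage marker, was the 1 called, at 16.3 and 19.3 CPM in vehicle and 35.4 and 33.6 CPM in SM08502 (limma adjusted p = 0.00303, and 0.0557 without vehicle replicate 1).

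SM08502 changed 1337 of 17011 genes in SNGM. Of these, 647 (3.8% of those tested) were higher and 690 (4.06%) were lower than in vehicle, at an adjusted p under 0.05 in a limma fit over all 32 libraries. The difference reached 2-fold in 71 of the higher and 87 of the lower genes, on the log2(CPM + 1) scale that is used throughout and understates the change of low genes. In all 1337 the 2 vehicle and 2 SM08502 libraries did not overlap. This is no separate support, because the calls rest on the same values. The share without overlap among all genes tested is not given here. The counts rested on every one of the 4 libraries. They were 346 higher and 320 lower without vehicle replicate 1, 260 and 408 without vehicle replicate 2, 212 and 248 without SM08502 replicate 1, and 314 and 464 without SM08502 replicate 2. In 340 genes the call held in each of these 4 fits. Over 8819 genes, duplicates differed by a root mean square of 0.188 to 0.437 on the log2 scale in SNGM, 0.087 to 0.130 in HEC265, 0.095 to 0.279 in Ishikawa-S33Y and 0.120 to 0.562 in Ishikawa, and the fit pools the spread of all 4 lines. A fit with only the 8 SNGM libraries called 74 higher and 97 lower, 165 of them among the 1337.

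The genes with the largest rises were mostly at low levels in vehicle. UNC79, a subunit of the NALCN sodium leak channel complex (chromosome 14, 93333182 to 93707876, GRCh38), stood at 2.33 and 2.46 CPM in vehicle and 11.3 and 11.2 CPM in SM08502. Its log2 difference was 1.85 (SE 0.13, limma adjusted p = 4.38e-08). The pseudogene CCDC150P1 went from 1.88 and 2.14 CPM to 21.4 and 13.4 CPM, a log2 difference of 2.58 (SE 0.34). It lies on chromosome 12 (122322174 to 122323847) within CLIP1, and without strand information its reads cannot be told from those of CLIP1. ROCK1P1, a partial copy of the kinase gene ROCK1, had 49.7 and 44.1 CPM in vehicle and 120 and 121 CPM in SM08502 (log2 difference 1.35, SE 0.15), and reads may be shared between the copies. COL7A1, the collagen of anchoring fibrils, and SAP30L, a component of SIN3 deacetylase complexes, rose by 1.46 and 1.29 on the log2 scale. In these 5 genes the groups did not overlap, which was a condition for being picked. Each call held when any 1 of the 4 libraries was left out.

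The largest falls were in genes of varied function. VPS36, an ESCRT-II subunit that sorts ubiquitinated cargo into multivesicular bodies (chromosome 13, 52412606 to 52450634), measured 60.5 CPM in both vehicle libraries and 18.7 and 18.2 CPM in SM08502. Its log2 level fell by 1.66 (SE 0.12, limma adjusted p = 4.38e-08). MUC16, the membrane mucin that carries the CA125 antigen, fell by 2.11 (SE 0.31), from 7.38 and 13.2 CPM to 1.56 and 1.49 CPM. FLRT3, a transmembrane protein of cell adhesion, went from 22.5 and 17.1 CPM to 4.43 and 5.66 CPM. RefSeq places it inside the span of MACROD2 on chromosome 20, so reads from the overlap cannot be told apart. ITGB5 (integrin beta 5) fell by 1.57, ATP8A1 (a phospholipid flippase) by 1.56, OPN3 (an opsin) by 1.71 and ATAD3A (a mitochondrial ATPase) by 1.50. For 2 of the 15 largest falls, HYAL3 and AKR1C2, leaving out any 1 of the 4 libraries ended the call, with limma adjusted p of 0.0516 to 0.114 for HYAL3 and 0.0516 to 0.0682 for AKR1C2. Of the 15 largest rises, RP11-977G19.10 lost its call without vehicle replicate 1, SM08502 replicate 1 or SM08502 replicate 2, and AOC2 without SM08502 replicate 1.

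**Figure D1:**
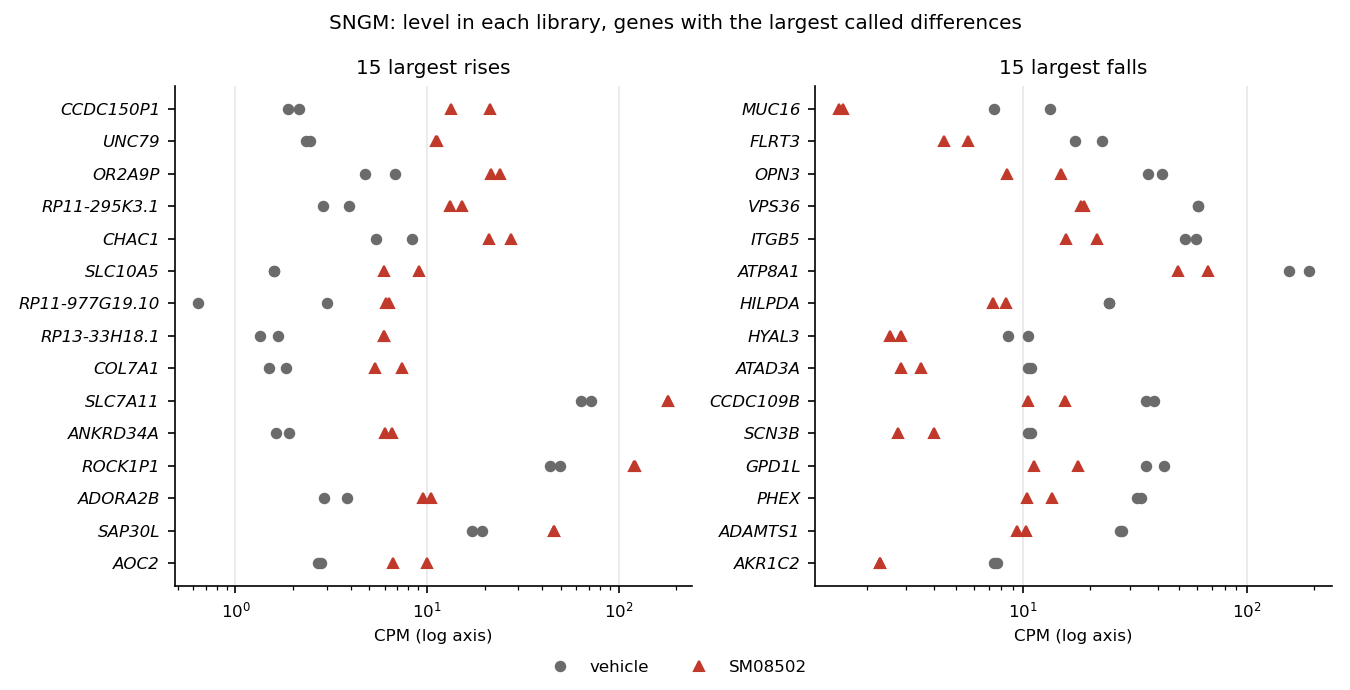
Level in each SNGM library (CPM, log axis) of the 15 genes with the largest called rises (left) and falls (right), with circles for the 2 vehicle and triangles for the 2 SM08502 libraries. In every gene shown the 2 groups do not overlap, which was a condition for being shown.

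The integrated stress response was the gene list with the largest share of calls. In this pathway stress kinases slow translation and raise the transcription factor ATF4, which switches on genes of amino acid uptake and synthesis. Of 18 genes tested, 10 rose and 1 fell, and the median log2 difference was 0.60 against 0.00 over all genes tested. Before the values of the stress response genes, the stretches of promoter of CHAC1 and ASNS that hold the letters TGATGNAA are printed, because this is the core of the element through which ATF4 is known to act. They are RefSeq sequence (GRCh38.p14), written 5′ to 3′ along the gene with the match in capitals. The CHAC1 stretch is chr15:40953232-40953299 (plus strand), where the match is on the opposite strand and ends 202 bases before the start site. The ASNS stretch is chr7:97872439-97872506 (minus strand), with the match 68 to 61 bases before the start site.
CHAC1: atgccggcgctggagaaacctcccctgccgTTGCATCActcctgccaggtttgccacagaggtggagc
ASNS: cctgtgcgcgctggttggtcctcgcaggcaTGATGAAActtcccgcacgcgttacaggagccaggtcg
The letters, on either strand of the 250 bases before the start site, were found in 3 of the 16 list genes in the promoter table (ATF3, ASNS and CHAC1) and in 3.19% of all 27305 promoters. A match of letters is a description and not a measured binding site.

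CHAC1, an enzyme that degrades glutathione and a known ATF4 target, had 8.30 and 5.39 CPM in vehicle and 27.6 and 21.2 CPM in SM08502. The log2 difference was 1.71 (SE 0.19, limma adjusted p = 7.56e-06). SLC7A11, the cystine and glutamate exchanger, was at 71.4 and 63.9 CPM in vehicle and 181 CPM in both SM08502 libraries (1.41, SE 0.13). ASNS (asparagine synthetase) was at 82.0 and 73.1 CPM in vehicle and 200 and 161 CPM in SM08502 (1.20, SE 0.11). The transcript of ATF4 itself rose by 0.78, from 143 and 133 CPM to 268 and 211 CPM. PSAT1, an enzyme of serine synthesis, rose by 0.87 and TRIB3, a pseudokinase that feeds back on ATF4, also by 0.87. These 6 calls, and that of CEBPG, held when any 1 of the 4 libraries was left out, while those of PHGDH, CEBPB and SESN2 were lost in at least 1 of these fits. Calls were kept in the SNGM libraries alone for CHAC1, SLC7A11 and ASNS. SHMT2, a mitochondrial enzyme of serine use, was the member that fell, by 0.42 (adjusted p = 0.00779, and 0.160 without vehicle replicate 1 and 0.0938 without SM08502 replicate 1). DDIT3, the proapoptotic factor CHOP, did not pass the test at 8.78 and 8.06 CPM in vehicle and 13.5 and 9.43 CPM in SM08502 (log2 difference 0.38, adjusted p = 0.132, and 0.0324 without SM08502 replicate 2).

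Targets of p53, the tumour suppressor that arrests damaged cells, were the second list to shift upward. Of 20 tested, 8 rose, none fell, and all 20 differences were above 0, with a median of 0.41. CDKN1A, the cyclin-dependent kinase inhibitor p21, measured 710 and 607 CPM in vehicle and 1202 and 1214 CPM in SM08502. Its log2 difference was 0.88 (SE 0.13, limma adjusted p = 0.000129). FDXR, a mitochondrial ferredoxin reductase, rose by 0.91 and MDM2, the ubiquitin ligase that degrades p53, by 0.51. These 3 calls held in each fit without 1 of the 4 libraries, while each of the other 5 was lost in at least 1 of them. RefSeq places CPM, a carboxypeptidase gene, over part of MDM2. SESN2, a sestrin that also belongs to the stress response list, lost its call without any 1 of the 4 libraries (adjusted p = 0.0400 with all, 0.0555 to 0.344 without one). The proapoptotic target BAX had overlapping groups, at 103 and 94.6 CPM against 96.2 and 104 CPM. The list of 18 BCL2 family genes had no call in either direction, and 18 genes of the G1 phase likewise had none. With 3.8% of all genes tested called higher and 4.06% lower, lists of this size may hold no call.

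Genes of mitosis had the largest share of falls together with hypoxia genes. Of 24 tested, 9 fell and none rose, with a median log2 difference of -0.38. CCNB1, the mitotic cyclin B1, stood at 295 and 233 CPM in vehicle and 110 and 148 CPM in SM08502, and fell by 1.03 (SE 0.15, limma adjusted p = 0.000123). KIF20A, a kinesin of cytokinesis, fell by 0.98, PLK1, a kinase of mitotic entry, by 0.89, and CDC20, the activator of the anaphase-promoting complex, by 0.67. These 4 calls held when any 1 of the 4 libraries was left out, and those of CCNA2, AURKA, BUB1, BIRC5 and CCNB2 did not. RefSeq places ERN2 over part of PLK1. CCNA2 (cyclin A2) was at 162 and 131 CPM in vehicle and 60.98 and 90.3 CPM in SM08502, and its call (adjusted p = 0.0163) was lost without vehicle replicate 1 (0.160) or SM08502 replicate 1 (0.266). SM08502 replicate 2 was the nearer to vehicle for CCNB1, KIF20A, PLK1, CDC20 and CCNA2, and the 24 genes summed to 2219 CPM in SM08502 replicate 1, 2829 CPM in replicate 2, and 3372 and 3090 CPM in vehicle. In bulk RNA, fewer mitotic cells and less of each transcript per cell cannot be told apart. CDK1 (99.7 and 83.2 CPM against 77.4 and 109 CPM) and TOP2A (480 and 453 CPM against 435 and 564 CPM) had overlapping groups. Of 24 genes of DNA replication, 2 fell and none rose, beside 4.06% lower and 3.8% higher among all genes tested. Their median log2 difference was -0.001, with 12 above 0 and 12 below, so the list as a whole showed no shift. RRM2, the small subunit of ribonucleotide reductase, was 1 of the 2, at 379 and 322 CPM in vehicle and 155 and 209 CPM in SM08502.

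For 3 of the mitosis genes that fell (PLK1, CDC20 and CCNB2), the promoter holds TTTGAA within 65 bases of the start site. Those of PLK1 and CDC20, whose calls held without any 1 library, are printed. These letters are the cell cycle homology region through which the DREAM complex and its activating counterparts are known to act on mitotic genes. The stretches are chr16:23678830-23678888 (PLK1, plus strand) and chr1:43358886-43358951 (CDC20, plus strand), with the match in capitals.
PLK1: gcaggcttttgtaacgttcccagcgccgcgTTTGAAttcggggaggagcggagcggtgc
CDC20: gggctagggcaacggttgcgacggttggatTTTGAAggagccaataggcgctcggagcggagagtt
On either strand of the 250 bases before the start site, TTTGAA was found in 8 of the 18 mitosis genes in the table and in 13.6% of all promoters. The 8 were both genes that fell (CCNB2, PLK1 and CDC20) and genes that did not pass the test (CDK1, BUB1B, KIF11, TOP2A and KIF23), so the letters did not separate them.

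Among targets of hypoxia-inducible factor there were falls and no rise. The factor drives glycolysis and oxygen sensing genes when its hydroxylation drops. Of 16 genes tested, 6 fell and the median log2 difference was -0.36. PDK1 (pyruvate dehydrogenase kinase 1) went from 186 and 188 CPM to 88.4 and 85.4 CPM, a fall of 1.09 (SE 0.14, limma adjusted p = 3.05e-05). EGLN3, an oxygen-sensing prolyl hydroxylase, measured 73.4 and 62.9 CPM in vehicle and 33.4 and 37.2 CPM in SM08502 and fell by 0.93. The glycolytic enzyme PGK1 fell by 0.78, and these 3 calls held in every fit without 1 library. HILPDA, a lipid droplet protein induced by hypoxia, was among the 15 largest falls, at 24.3 and 24.1 CPM against 8.35 and 7.33 CPM. ADM (adrenomedullin, adjusted p = 0.0223) lost its call without any 1 of the 4 libraries (0.0607 to 0.192). BNIP3 lost it without vehicle replicate 1 (0.0748) or SM08502 replicate 1 (0.0825), and SLC2A1, the glucose transporter GLUT1, without the same libraries (0.0722 and 0.0653).

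**Figure D2:**
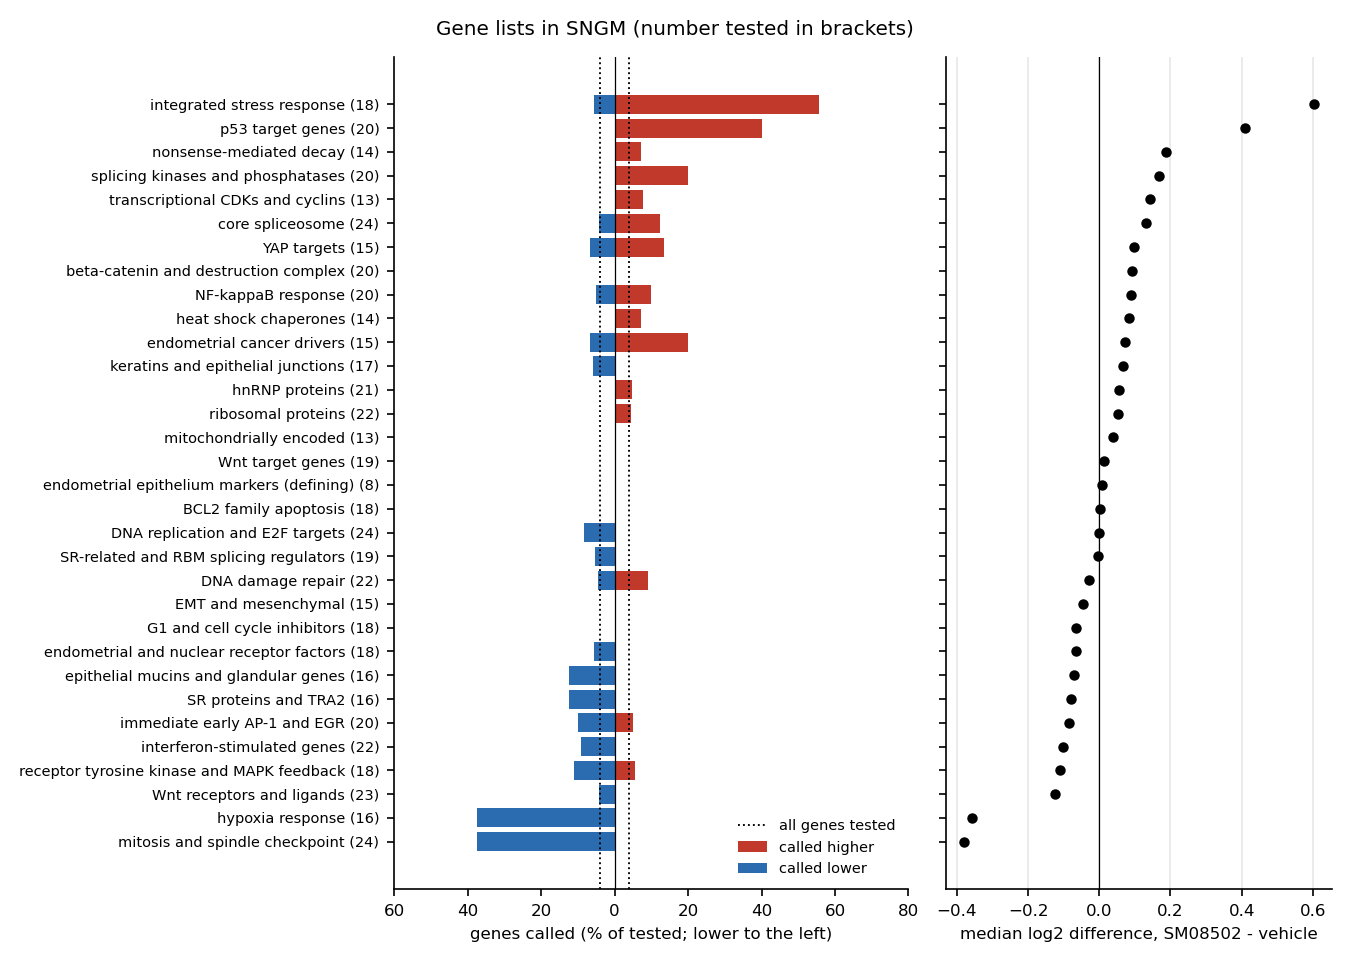
Left, percent of tested genes called higher (right of 0) and lower (left of 0) for SM08502 against vehicle in SNGM, for each list with at least 8 tested genes, with dotted lines at the share of all genes tested (3.8% and 4.06%). Right, median log2 difference of each list, from 0.60 for the integrated stress response to -0.38 for mitosis.

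The transcripts of the 4 CLK kinases rose. CLK1 was at 25.6 and 26.5 CPM in vehicle and 50.7 and 58.5 CPM in SM08502 (log2 difference 1.04, SE 0.14, limma adjusted p = 7.58e-05). CLK4 went from 10.7 and 11.6 CPM to 23.3 and 23.5 CPM (1.01, SE 0.16). CLK3, which an antisense gene overlaps, rose by 0.75, and CLK2 by 0.66. The 4 CLK genes were the only calls among 20 splicing kinases and phosphatases and held when any 1 library was left out. In the SNGM libraries alone none of the 4 passed, with adjusted p = 0.0584 for CLK1 and 0.147 for CLK4, each the highest over all alternatives, whose lowest were 2.78e-06 and 3.78e-07.

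Calls among other splicing genes are given singly, and a shift of a class was not tested. PRPF3, a protein of the U4/U6 particle, rose by 1.04, from 27.7 and 31.1 CPM to 66.0 and 56.9 CPM (limma adjusted p = 2.30e-05). RBM8A, a core protein of the exon junction complex, rose by 0.82, from 76.4 and 77.2 CPM to 137 and 136 CPM. SNRPA, of the U1 particle, rose by 0.46. Of 24 core spliceosome genes, 3 rose and 1 fell, beside 3.8% higher and 4.06% lower among all genes tested. Their median log2 difference was 0.13 against 0.00 over all genes tested, with 17 above 0 and 7 below. Of 14 genes of nonsense-mediated decay RBM8A alone was called, with a median of 0.19, 12 above 0 and 2 below. The 16 SR protein and TRA2 genes gave no rise and 2 falls, with a median of -0.08, 6 above 0 and 10 below. SRSF2 had 275 and 238 CPM in vehicle against 144 and 181 CPM (adjusted p = 0.00118, and 0.0549 without SM08502 replicate 1). SRSF7 had 111 and 99.0 CPM against 67.4 and 78.5 CPM (0.0162, and 0.158 without vehicle replicate 1 and 0.215 without SM08502 replicate 1).

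No Wnt target gene passed the test in this CTNNB1-mutated line at this dose and time. Of 20 genes, 19 passed the filter on low values, and limma called none of them. Among all genes tested 3.8% were called higher and 4.06% lower, so a list of this size may hold no call. The median log2 difference was 0.01, and 6 of the 20 were below 1 CPM in all 4 libraries. AXIN2, a feedback inhibitor that is the most used readout of the pathway, measured 31.7 and 28.8 CPM in vehicle and 36.1 and 34.1 CPM in SM08502, a log2 difference of 0.21 (SE 0.18, adjusted p = 0.587). LEF1, a partner of beta-catenin on DNA, was at 10.8 and 10.1 CPM against 11.9 and 12.2 CPM. NKD1 had 20.2 and 27.6 CPM against 51.6 and 30.6 CPM, so the SM08502 duplicates lay far apart (adjusted p = 0.211). CD44 and CTNNB1 had overlapping groups. A p over the threshold does not show that these genes are unaffected. Of 23 Wnt receptors and ligands, 1 fell: FZD4, a Frizzled receptor, with 60.5 and 52.0 CPM against 35.7 and 37.6 CPM. Its call was lost without vehicle replicate 1, SM08502 replicate 1 or SM08502 replicate 2, with adjusted p up to 0.172. Of 20 genes of beta-catenin and its destruction complex, none was called.

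Single genes of other lists stood out. CTGF, a secreted matrix protein and YAP target, rose by 1.28 (SE 0.16), from 19.2 and 16.1 CPM to 43.9 and 44.7 CPM. AXL, a receptor tyrosine kinase also listed with YAP targets, fell from 92.9 and 87.9 CPM to 47.8 and 53.9 CPM, and its call (limma adjusted p = 0.00675) was lost without vehicle replicate 1 (0.0645) or SM08502 replicate 1 (0.0952). The 15 YAP targets as a whole had 2 rises and 1 fall. DUSP1, a phosphatase that switches off MAP kinases, fell by 0.68, from 39.7 and 32.2 CPM to 20.3 and 23.7 CPM. The remaining lists had the calls below, beside 3.8% higher and 4.06% lower among all genes tested. In lists this small, 1 call is not a result about the list. Of 21 hnRNP genes 1 rose, of 13 transcriptional CDKs and cyclins 1 rose (CDK9, 46.8 and 39.9 CPM against 70.2 and 68.9 CPM), of 14 chaperones 1 rose and of 22 ribosomal protein genes 1 rose. Rises and falls were 2 and 1 of 22 DNA repair genes, 1 and 2 of 20 immediate early genes, 2 and 1 of 20 NF-kappaB genes, 3 and 1 of 15 endometrial cancer drivers, and 1 and 2 of 18 receptor tyrosine kinase and MAPK feedback genes. There were 2 falls and no rise among 22 interferon-stimulated genes and 16 mucin and glandular genes each, and 1 fall and no rise among 17 keratin and junction genes and 18 endometrial factors each. Neither the 15 EMT genes nor the 13 mitochondrially encoded genes had a call.

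SM08502 was also added to paclitaxel in SNGM, in 4 libraries that share none with the comparison above. Paclitaxel stabilises microtubules. There 1578 genes (9.28% of those tested) were higher and 1122 (6.6%) lower with SM08502 than with paclitaxel alone. One combination library held only 1.61 M reads, against 27.0 to 30.6 M in the other 3, and without it (combination replicate 2) the counts were 795 higher and 560 lower. Without combination replicate 1, which leaves only the shallow library, they were 2914 and 3301. Without paclitaxel replicate 1 they were 927 and 451, and without paclitaxel replicate 2 they were 462 and 472. Of the 1337 genes changed by SM08502 alone, 933 (69.8%) were called in the same direction on top of paclitaxel, and 2 were called in opposite directions, CCNL1 and PLPP2. The sign of the difference was the same in 1307 of the 1337 (97.8%) and in 68.6% of all genes tested. The duplicates were not fully independent between these groups: across 10158 genes, the difference of replicate 1 and replicate 2 correlated with r = 0.72 between vehicle and paclitaxel and 0.51 between SM08502 and combination.

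These 4 lists had their calls in the same directions with paclitaxel present. There, the stress response list had 8 rises and 1 fall, p53 targets 5 rises and no fall, mitosis genes 10 falls and no rise, and hypoxia genes 5 falls and no rise. SLC7A11 went from 94.0 and 77.2 CPM with paclitaxel to 215 and 228 CPM with both drugs, a log2 difference of 1.37 beside 1.41 without paclitaxel. CCNB1 fell by 0.94, from 254 and 214 CPM to 103 and 142 CPM. The plot of the 4 lists shows both differences for each called member.

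**Figure D3:**
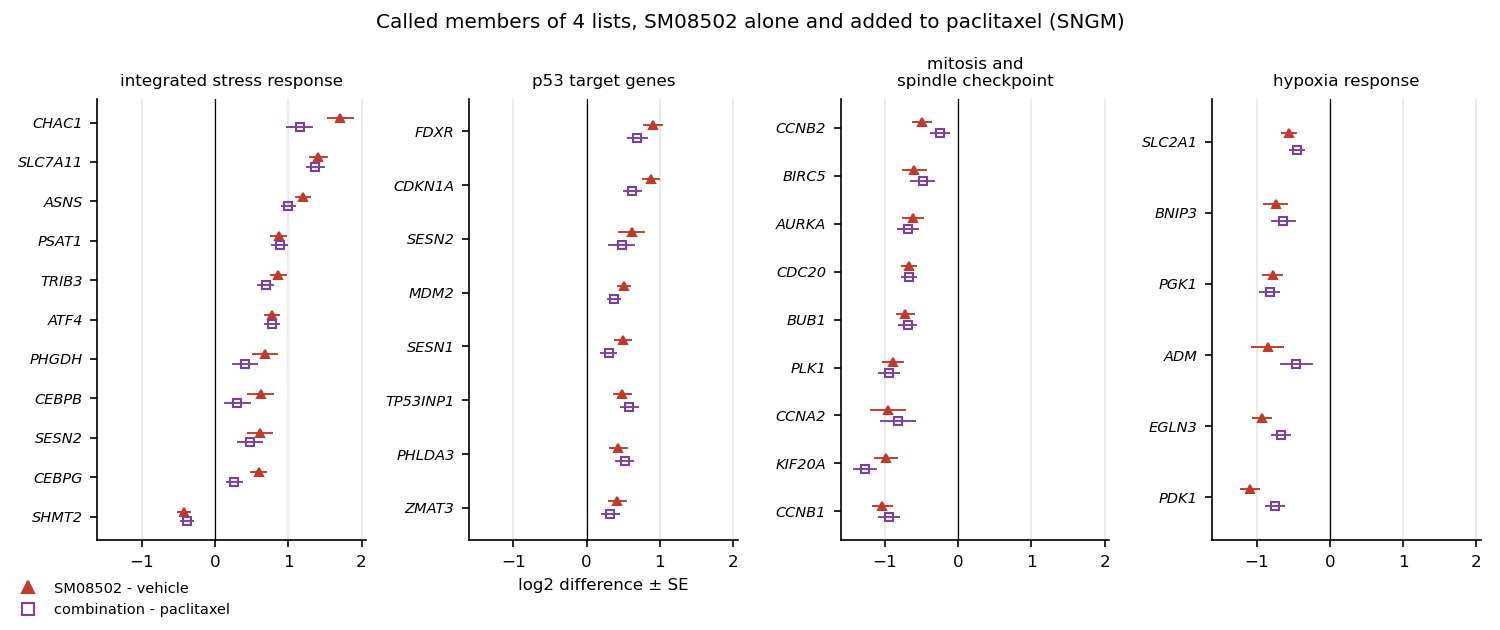
Log2 difference with its SE for each called member of 4 lists in SNGM, with filled triangles for SM08502 minus vehicle and open squares for the combination minus paclitaxel. All pairs lie on the same side of 0, from CHAC1 (1.71 and 1.15) to CCNB1 (-1.03 and -0.94).

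The calls in a list of splicing regulators were not the same with paclitaxel, which is no test of a difference between the settings. Among 19 SR-related and RBM genes, SM08502 alone gave 1 fall and no rise, beside 4.06% lower and 3.8% higher among all genes tested. SM08502 on top of paclitaxel gave 5 rises and no fall in this list, beside 9.28% higher and 6.6% lower among all genes tested. LUC7L, a U1-associated protein, was at 33.2 and 38.2 CPM in vehicle and 29.7 and 28.2 CPM with SM08502, but at 31.6 and 29.1 CPM with paclitaxel and 42.3 and 47.3 CPM with both. It was the only gene (0.00588% of those tested) whose SM08502 effect differed with and without paclitaxel, by 0.84 on the log2 scale (SE 0.13, limma adjusted p = 0.0358), and it was named after its values were seen. At an unadjusted p under 0.05 the same contrast gave 1300 genes. CCNL1, cyclin L1, a partner of CDK11 in splicing, fell by 0.36 with SM08502 alone (100.8 and 105 CPM to 77.5 and 82.8 CPM) and rose by 0.46 on top of paclitaxel (103 and 89.0 CPM to 134 and 131 CPM). The 2 effects differed by an amount that missed the threshold (0.82 on the log2 scale, adjusted p = 0.0513), and the fall with SM08502 alone was lost without any 1 of the 4 libraries (0.0810 to 0.249). PNISR, an SR-related protein, measured 74.8 and 85.1 CPM in vehicle, 103 and 90.3 CPM with SM08502, 69.5 and 65.6 CPM with paclitaxel and 135 and 113 CPM with both. The shallow combination library is one of the 2 behind each combination value. LUC7L kept its call without vehicle replicate 1, paclitaxel replicate 1 or combination replicate 1, and lost it without any other SNGM library. Without combination replicate 2, the shallow one, its limma adjusted p was 0.116, and 1 other gene was called. The number of genes whose effect differed was 0 without vehicle replicate 2, either SM08502 library or paclitaxel replicate 2, 5 without paclitaxel replicate 1, and 2577 without combination replicate 1.

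**Figure D4:**
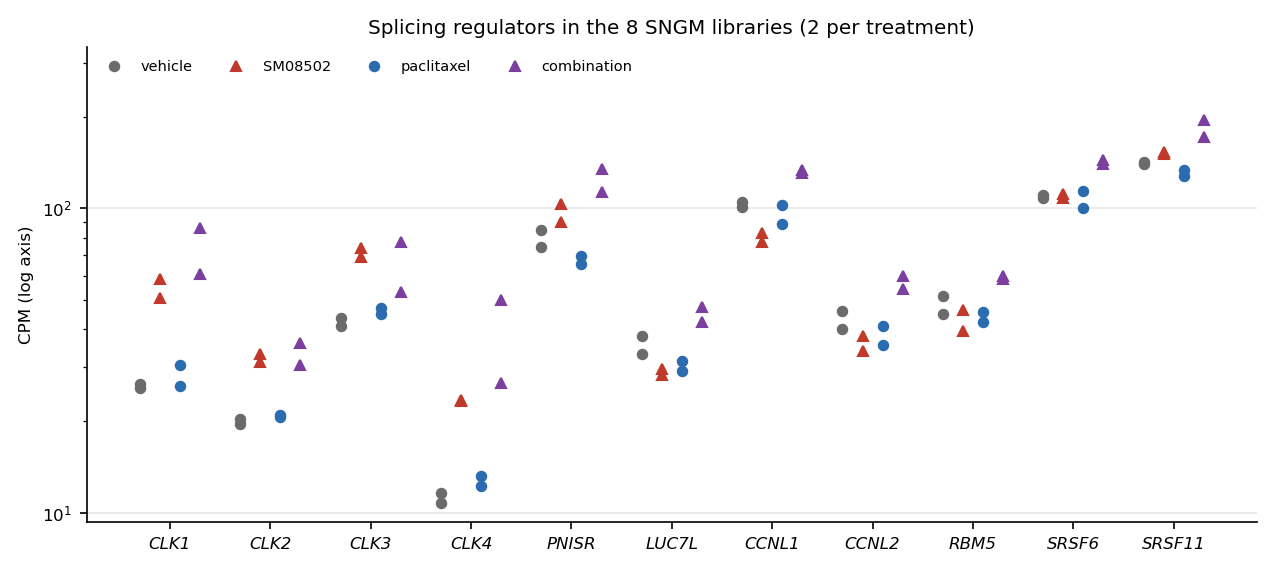
Level in each of the 8 SNGM libraries (CPM, log axis) of the 4 CLK kinases and 7 further splicing regulators, with circles for libraries without SM08502 (grey vehicle, blue paclitaxel) and triangles for those with it (red SM08502, purple combination). CLK1 to CLK4 are higher with SM08502 in both settings, while LUC7L, CCNL1, CCNL2 and RBM5 lie lower with SM08502 than with vehicle on average and higher with the combination than with paclitaxel. All but the CLK genes and CCNL1 were chosen after their values were seen.

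The SM08502 effect in SNGM was then set against the mean effect in Ishikawa, Ishikawa-S33Y and HEC265. In SNGM the effect was above that mean for 329 genes (1.93% of those tested) and below it for 561 (3.3%). The balance of the directions depended on scaling, with 625 above and 415 below after each library was centred on its median, and 609 and 535 after quantile normalization. Among the 1337 genes changed in SNGM, 305 (22.8%) differed from the other lines, beside 890 of all 17011 genes tested. This contrast holds the same SNGM difference that chose the 1337, so a larger share is built in. Of the 1337, 284 (21.2%) were called in the same direction in all 3 other lines and 364 (27.2%) in none of them. Another 113 (8.45%) were called in the opposite direction in another line. The share of all genes tested with such calls in the other lines is not given here, so these shares cannot be read as high or low. Without any 1 of the 4 libraries the counts were lower, at 105 to 135 above and 201 to 234 below, and without either combination library they were 588 or 589 above and 1067 or 1068 below. The dose in SNGM was the highest of the 4 lines, and the difference may not be read as one of lines alone.

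Several stress response genes had a larger effect in SNGM than the mean of the other lines, but some also rose in Ishikawa-S33Y. Of the 18 list genes, 7 had a larger effect in SNGM and none a smaller one. SLC7A11 changed by 1.41 in SNGM and by -0.34, -0.01 and 0.30 in Ishikawa, Ishikawa-S33Y and HEC265, a difference of 1.43 from their mean (SE 0.15, limma adjusted p = 1.90e-05). CHAC1 differed by 1.48, ASNS by 1.03 and PSAT1 by 1.01. ATF4 changed by 0.78 in SNGM and by 0.01, 0.88 and -0.12 in the other lines, and its difference from their mean lost its call without vehicle replicate 2 (adjusted p = 0.102) or SM08502 replicate 1 (0.162). ASNS (0.87), PHGDH (0.69), TRIB3 (0.55), CHAC1 (0.54) and CEBPG (0.50) were also called higher in Ishikawa-S33Y. Of the mitosis genes, 7 of 24 had an effect below that of the other lines and none above. CCNB1 changed by -1.03 in SNGM against -0.02, 0.53 and -0.48, and KIF20A by -0.98 against -0.18, 0.71 and -0.12. The hypoxia list had 1 gene that differed from the mean of the other lines, EGLN3, and its call was lost without any 1 of the 4 libraries (adjusted p = 0.0313 with all, 0.0543 to 0.180 without one). The mean joins lines that were not alike. PGK1 changed by 0.04 in Ishikawa, -1.03 in Ishikawa-S33Y and 0.02 in HEC265, and BNIP3 by 0.03, -1.40 and 0.12, with Ishikawa-S33Y alone past the threshold. PDK1 changed by -0.38, -1.31 and -0.78 and passed in Ishikawa-S33Y and HEC265.

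CLK1 rose less in SNGM (1.04) than in Ishikawa (1.58), Ishikawa-S33Y (1.70) and HEC265 (1.81), by 0.66 from their mean (limma adjusted p = 0.0209). This call was lost without vehicle replicate 1 (0.0691), vehicle replicate 2 (0.0981) or SM08502 replicate 1 (0.136). Of the SR-related and RBM list, 6 of 19 genes were below the other lines and none above. For CCNL1 the effect was -0.36 in SNGM against 0.50, 0.65 and 0.31. GOSR2, a SNARE of Golgi traffic (chromosome 17, 46923160 to 46975890), had one of the largest gaps. It stood at 99.4 and 91.1 CPM in vehicle and 38.6 and 39.0 CPM in SM08502 in SNGM, a log2 change of -1.27, against -0.07, 0.37 and 0.42 in the other lines (difference -1.51, adjusted p = 2.61e-07). RefSeq places LRRC37A2 over part of it. FOXJ1, the master factor of motile cilia, showed the reverse case. It did not pass the test in SNGM (adjusted p = 0.740), at 21.1 CPM in both vehicle libraries and 24.5 and 23.2 CPM in SM08502, and changed by -1.64, -1.92 and -2.10 in the other lines.

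**Figure D5:**
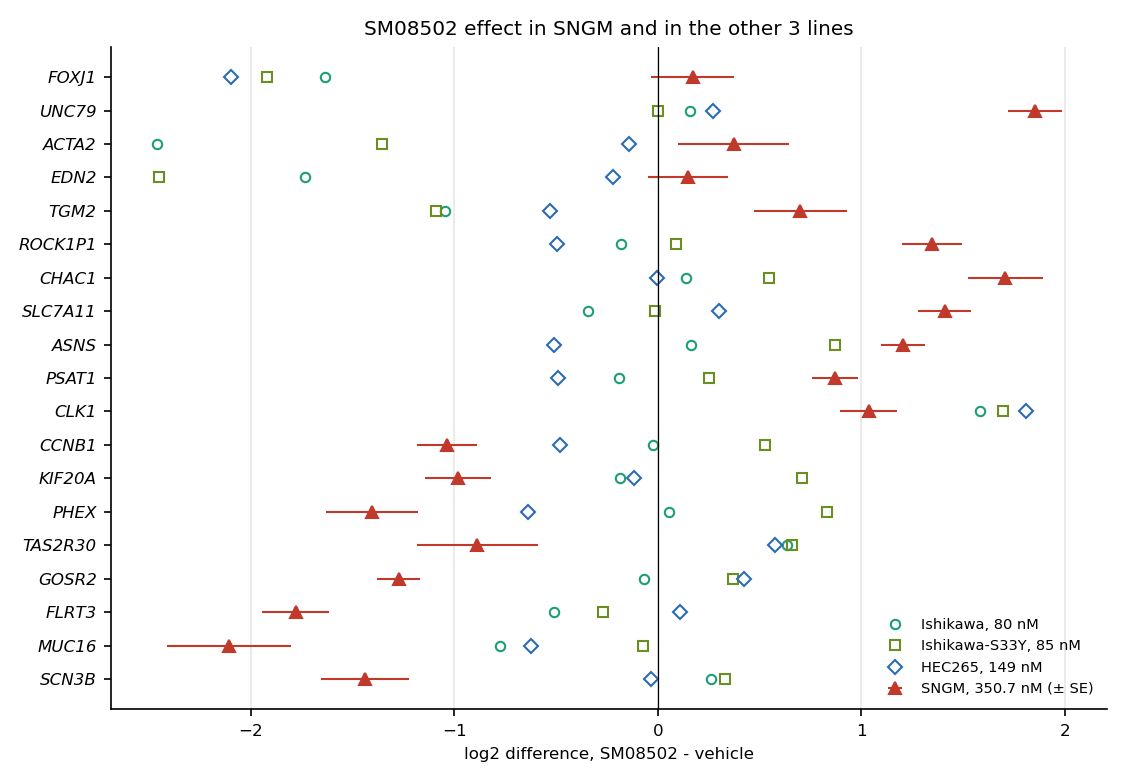
Log2 difference of SM08502 against vehicle in SNGM (triangles, with SE) and in Ishikawa, Ishikawa-S33Y and HEC265 (open symbols) for 19 genes, ordered by the gap between SNGM and the mean of the other lines. SLC7A11, CHAC1 and PSAT1 lie to the right of all 3 other lines in SNGM, GOSR2 to the left, and FOXJ1 at 0.17 in SNGM against -1.64, -1.92 and -2.10.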

How the data were processed

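RNA depleted of rRNA was sequenced from 32 libraries, 4 of them compared here. The authors deposited log10(CPM + 1) values for 35238 genes, and the submitters' processing notes name bcl2fastq, kallisto, STAR and GRCh38 without versions or roles. Splicing tables were not analysed here, and some genes are not reported here. All values correspond to whole reads within a tolerance of 0.1, and total reads per library come from these. Values were converted to log2(CPM + 1), pseudocount 1, and genes above 1 CPM in at least 2 libraries were kept (17011). limma 3.58.1 (R 4.3.3) fitted 16 group means over all 32 libraries with an intensity trend, and p-values were Benjamini-Hochberg adjusted over all genes, called under 0.05. The same fit gave the combination against paclitaxel, the effect in SNGM minus the mean effect in the other 3 lines, and the effect with minus without paclitaxel.

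Genes named are the 15 largest called rises and falls with a mean log2 of at least 2 and groups that did not overlap, CLK1 to CLK4, up to 4 called members per list (otherwise its most abundant member), and the 6 largest differences from the other lines in each direction. The genes TRIB3, ATF4, CEBPG, PHGDH, CEBPB, SHMT2, DDIT3, CDC20, BUB1, CCNB2, AURKA, BIRC5, CDK1, TOP2A, BNIP3, SLC2A1, PNISR, LUC7L, CCNL2, RBM5, SRSF6, SRSF5, SRSF10, SRSF11, AXIN2, LEF1, NKD1, CTNNB1 and PLPP2 fall outside it and were chosen after their values were seen. Members and lists were chosen with earlier results of these data known. The counting is not stated to use strand, so overlapping genes cannot be told apart. Of the 146 genes named, 78 overlap another gene in RefSeq, and the overlap is stated above for only some of them. Alternatives varied the filter, pseudocount, scaling, samples, weights, replicate block, read-level model and length score. The scripts were tested on simulated data. Promoters are RefSeq (GRCh38.p14), first entry per symbol.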

Additional observations from a re-analysis of the deposited data

Results flagged for a closer look

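Named genes are given here where the SM08502 effect in SNGM (350.7 nM) differed from its mean in Ishikawa, Ishikawa-S33Y and HEC265 (80, 85 and 149 nM) by an interaction contrast in the limma fit over all genes, with an adjusted p under 0.05. Line and dose cannot be told apart, and values in brackets are differences of log2 effects, SNGM minus the mean of the other lines. Of these 51 genes, 22 passed the threshold without any 1 of the 4 libraries of SM08502 and vehicle in SNGM, and 29 did not. The effect in SNGM was above the mean of the other lines for FOXJ1 (2.06), UNC79 (1.71), ACTA2 (1.69), EDN2 (1.62), TGM2 (1.59), ROCK1P1 (1.54), CHAC1 (1.48), SLC7A11 (1.43) and RP13-33H18.1 (1.21). Smaller positive differences were found for COL7A1 (1.14), ASNS (1.03), PSAT1 (1.01), TRIB3 (0.86), CTGF (0.82), CEBPB (0.82), CRYAB (0.75), SPRY1 (0.70) and CDKN1A (0.62). The smallest positive ones were those of ATF4 (0.53) and MDM2 (0.44). The mean joins lines that were not alike, so a difference from it does not make a change particular to SNGM. CTGF changed by 1.28 in SNGM and by 0.34, 1.57 and -0.53 in Ishikawa, Ishikawa-S33Y and HEC265. HILPDA, among the genes with a lower effect, changed by -1.51 in SNGM and by -0.37, -1.47 and -0.24 in these lines.

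The effect in SNGM was below the mean of the other lines for SCN3B (-1.62), MUC16 (-1.62), FLRT3 (-1.56), GOSR2 (-1.51), TAS2R30 (-1.51), PHEX (-1.48), KIF20A (-1.12) and ADAMTS1 (-1.09). Next in size were CCNB1 (-1.04), CDC20 (-1.04), OPN3 (-0.91), PLK1 (-0.91), ATP8A1 (-0.90), BIRC5 (-0.89), CCDC109B (-0.86), PIGR (-0.85) and CCNL1 (-0.84). These were followed by HILPDA (-0.82), KLF6 (-0.74), JUN (-0.73), BUB1 (-0.72), RBM5 (-0.71), LUC7L (-0.70), HOXA11 (-0.70), DUSP1 (-0.70) and CLK1 (-0.66). The smallest negative differences were those of CCNL2 (-0.63), EGLN3 (-0.59), PLPP2 (-0.58), PNISR (-0.45) and SRSF6 (-0.41). The SM08502 effect with paclitaxel minus that without it passed the same threshold for 1 gene, LUC7L (0.84), and not without the shallow combination library (adjusted p = 0.116).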

How the results depend on the processing

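Counts are given as higher and lower. For SM08502 against vehicle (647 and 690) they were 74 and 97 in the SNGM samples alone, 278 and 344 with a weight per line, 1270 and 1332 with limma voom on recovered reads and 1714 and 1269 with the length score, with 445 lower in the 4 libraries alone. Leaving out 1 library gave 212 to 959 and 248 to 1019, the highest without either combination library. For SM08502 added to paclitaxel (1578 and 1122) they were 166 and 143 (SNGM alone), 709 and 536 (weights) and 2568 and 1740 (length score), and 462 to 2914 and 451 to 3301 on leaving out 1 library. For SNGM against the other lines (329 and 561), weights gave 132 and 181, voom 610 and 1188, the length score 1040 and 1305, a pseudocount of 0.1 gave 200 higher, median re-centring 625 higher and quantile normalization 609 higher, and leaving out 1 library gave 105 to 589 and 201 to 1068. For the effect with minus without paclitaxel (1 gene), no filter gave 15, the stricter filter 6, the filter within SNGM 4, the pseudocount of 0.1 gave 7, re-centring 0, quantile normalization 0, CPM without mitochondrial genes 4, no trend 2, SNGM alone 0, weights 0, voom 5, the length score 12, and leaving out 1 library 0 to 2577. Where limma called none, genes at an unadjusted p under 0.05 numbered 1320 (re-centring), 1238 (quantile normalization), 471 (SNGM alone), 591 (weights), 1275 (replicate block) and 776 to 1158 (leaving out 1 library). The causes were not tested. Fits that leave libraries out also rest on fewer libraries, and the part of this was not tested either.

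With the replicate block the counts were 627 and 679, 1529 and 1105, 324 and 511, and 0. Same-numbered vehicle and SM08502 libraries deviated in opposite directions (r = -0.59 over 10158 genes), so the numbers do not pair them. A replicate block with crossed numbers in SNGM, chosen after seeing the data, gave 919 and 949, 1985 and 1430, 560 and 864, and 2, LUC7L not among them. Of the 146 genes named, 22 were called in every setting and none changed sign among called values. The SNGM fit alone ended the call of 76, including PSAT1 (adjusted p = 0.0556), TRIB3 (0.0605) and ATF4 (0.0517). The contrast with other lines could not be fitted in the SNGM samples or the 4 libraries alone, nor could those with paclitaxel in the 4 libraries. The combination library of 1.61 M reads has a floor of 1.87 CPM at 3 reads, which covers counting error only.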

Other observations

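The span of each gene was taken from RefSeq for the genes that matched by symbol. Genes called higher in SNGM spanned a median of 25.9 kb (588 of 647 matched), genes called lower 35.9 kb (653 of 690) and all genes tested 29.6 kb (15288 of 17011). Protein-coding genes made up 95.1%, 97.2% and 94.6% of the matched genes.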
